A study of Mus musculus with 30 samples.

Results

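The calcium handling genes of the cardiomyocyte were followed here by 9 named members, *Cacna1c*, *Jph2*, *Ryr2*, *Casq2*, *Hrc*, *Atp2a2*, *Pln*, *Slc8a1* and *Camk2d*. They were chosen by name, with no measured value in the rule, though with earlier results of these data known. All 9 were present among the 49671 genes of the peptide table and the 55263 genes of the antibody table. Left ventricles of male C57BL6J mice with no transgene were profiled by stranded total RNA sequencing in 2 studies that were scaled separately, so levels are not compared between them. In the peptide study, mice aged 12 weeks by the labels, where the methods give a starting range that ends at that age, received a daily intraperitoneal injection of recombinant human Aβ42 (7 hearts) or of the scrambled peptide ScrAβ42 (7 hearts) for 4 weeks. In the antibody study, mice that entered at 12 weeks received 3D6, an antibody against Aβ (8 hearts), or a control antibody (8 hearts) weekly at 0.75 mg/kg for 4 months. The study's methods put both antibody groups on a high-fat diet, whereas its design text mentions Aβ42 for the antibody mice, and the methods were followed. The peptide dose is given as 1 mg per day in the labels and as the same figure in micrograms in the methods. No group without injection and no lean antibody group was analysed here. As the tissue was a piece of ventricle holding many cell types, fewer cells of a type and less RNA per cell cannot be told apart.

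By the GENCODE vM21 annotation of GRCm38, *Cacna1c* lies at chr6:118587240-119196418, *Jph2* at chr2:163336242-163397993, *Ryr2* at chr13:11553102-12106945, *Casq2* at chr3:102086415-102146514, *Hrc* at chr7:45335290-45338974, *Pln* at chr10:53337667-53345987 and *Slc8a1* at chr17:81373105-81738377. The places of *Atp2a2* and *Camk2d* are given with their transcripts.

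In the cardiomyocyte each beat begins when calcium enters through the L-type channel and opens the ryanodine receptor of the adjoining sarcoplasmic reticulum, which releases the stored calcium that drives contraction. Relaxation follows as the SERCA2 pump returns calcium to the store and the sodium-calcium exchanger removes it from the cell. The question put to the data was whether transcripts of this machinery differed with 4 weeks of Aβ42, and whether they differed when Aβ was bound by 3D6 during diet-induced obesity, a setting in which the study followed cardiac relaxation.

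Total counts per heart ran from 4478991 to 6015767 in the peptide study and from 6397192 to 8310478 in the antibody study. Mitochondrially encoded genes took 12.9 to 22.2% of the counts in the peptide study and 26.0 to 37.9% in the antibody study. All 10 structural cardiomyocyte markers were detected in every heart, with a summed level of 48779 to 104980 counts-per-million (CPM, scaled by the trimmed mean of M-values) in the peptide study and 55097 to 71225 CPM in the antibody study. The levels of 7 atrial markers (*Sln*, *Myl7*, *Myl4*, *Bmp10*, *Mybphl*, *Nppa* and *Dkk3*) varied widely between hearts labelled as ventricle. Their sum was 24.2 to 14485 CPM with Aβ42 (median 1859) and 22.7 to 5398 CPM with ScrAβ42 (median 41.8), and *Bmp10* was at 0 in 4 and *Sln* in 1 of the peptide study's hearts. In the antibody hearts the sum was 2.41 to 1631 CPM with 3D6 and 13.1 to 6813 CPM with the control antibody.

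The members spanned a wide range of levels when read per length, as CPM per kilobase of annotated transcript. *Atp2a2*, the SERCA2 pump, and *Pln*, the small membrane protein phospholamban that restrains it, lay far above the others in every group. With ScrAβ42, *Atp2a2* had a mean of 3707 ± 423 CPM per kilobase (SD, n = 7) and *Pln* 2901 ± 394, and their hearts overlapped. *Hrc* followed at 435 ± 60.6, then *Casq2* at 252 ± 34.7, *Ryr2* at 182 ± 17.5 and *Jph2* at 160 ± 33.1, of which only *Ryr2* and *Jph2* overlapped. *Cacna1c* (70.1 ± 13.6), *Camk2d* (39.2 ± 2.63) and *Slc8a1* (18.7 ± 2.04) closed the order without overlap. The order was the same with Aβ42, where *Hrc* and *Casq2*, *Casq2* and *Ryr2*, and *Cacna1c* and *Camk2d* also overlapped. With either antibody *Jph2* stood above *Ryr2* and *Slc8a1* above *Camk2d* by their means in both groups, and the hearts overlapped in each of these pairs. The lengths were weighted by the antibody study's transcript counts divided by transcript length, so the order in the peptide study rests on the transcripts of other hearts. For *Ryr2* this gave 10804 bases, although Ryr2-201, of 16814 bases, held 88.7% of its counts on average. The place of *Ryr2* in the order therefore depends on this weighting.

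None of the 9 members passed the test between Aβ42 and ScrAβ42. In the quasi-likelihood test of edgeR, adjusted by Benjamini-Hochberg, 0 of 9 members and 0 of the 11985 genes tested passed an adjusted p of 0.05 (0% of all genes), and the smallest adjusted p over all genes was 0.091. At an unadjusted p under 0.05 the count was again 0 of 9 members, against 780 genes or 6.51% of all genes. DESeq2 called 12 genes and limma-voom 0, and no member was among them. The members' log2 fold changes ran from -0.32 to 0.04 with a median of -0.08, 1 being positive and 8 negative, and the median over all genes was 0.00. The 10 structural cardiomyocyte markers had a median of -0.10 in the same fit, close to that of the members. Medians of other marker lists were -0.11 (endothelial), -0.09 (macrophage), 0.02 (fibroblast) and 2.31 (atrial). Scaled to structural cardiomyocyte genes, *Atp2a2*, *Ryr2*, *Casq2* and *Slc8a1* turned positive (0.05 to 0.14), a scaling that moved the median of all genes to 0.14, so none of them lay above that median. The middle 90% of all genes lay between -0.26 and 0.42.

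The channel and the junction between the surface membrane and the store had the largest differences in this comparison. *Cacna1c* encodes the pore of the L-type calcium channel. It was at 224 CPM in the lowest Aβ42 heart, with a median of 436 and a highest value of 540, and at 356, 564 and 646 CPM in the same order with ScrAβ42. No Aβ42 heart reached the ScrAβ42 median, although the groups overlapped. The log2 fold change was -0.32 (SE 0.17, 95% interval -0.68 to 0.05), with an unadjusted p of 0.0824 and an adjusted p of 0.783 by edgeR, and the two-sided exact permutation test gave p = 0.101. *Jph2*, junctophilin-2, which holds the surface membrane against the store, was at 399, 574 and 717 CPM (lowest, median and highest) with Aβ42 and at 449, 672 and 928 CPM with ScrAβ42. Of the 7 Aβ42 hearts, 1 was above the ScrAβ42 median, and the groups overlapped. Its log2 fold change was -0.29 (SE 0.14, 95% interval -0.59 to 0.02), with an adjusted p of 0.765 by edgeR.

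The low hearts also stood apart in other measures. The Aβ42 heart with 224 CPM of *Cacna1c* (replicate 5) also held the group's lowest *Atp2a2*, *Pln*, *Hrc* and *Jph2* (399 CPM), and had an atrial marker score, the mean z-score of the 7 markers, of 1.45 and a mitochondrial share of 12.9%, the lowest of its group. The ScrAβ42 heart with the lowest *Atp2a2*, *Pln*, *Cacna1c*, *Ryr2*, *Slc8a1*, *Hrc* and *Jph2* (449 CPM; replicate 6) had a score of 1.13 and a mitochondrial share of 13.8%, likewise the lowest of its group. The heart with the highest atrial score, 1.46 (Aβ42 replicate 3), had *Cacna1c* at 416 CPM, near the group median. It also had the group's lowest *Ryr2* (1579 CPM) and *Casq2* (525 CPM). Its *Pln* (4135 CPM) and *Hrc* (799 CPM) were the lowest of the group after replicate 5. Without Aβ42 replicate 5 the log2 fold change of *Cacna1c* was -0.21. When the fit took this score in, *Cacna1c* was at -0.04, *Jph2* at -0.08 and *Pln* at 0.21 on the log2 scale. The score had a median of 0.59 with Aβ42 and -0.69 with ScrAβ42. It includes *Nppa*, which the study reports as increased in hearts given Aβ42. Score and treatment therefore cannot be fully told apart in this fit. Without the 5 hearts of high score (above 0.5; Aβ42 replicates 1, 3, 5 and 6 and ScrAβ42 replicate 6), *Jph2* was at -0.27 (unadjusted p = 0.0642 by edgeR), *Cacna1c* at -0.17, *Pln* at 0.11 and *Slc8a1* at -0.22. That leaves 3 Aβ42 hearts. Other cell markers had wide ranges that overlapped between the peptide groups. All 5 adipocyte markers were detected, each at 0 in 4 to 9 of the 14 hearts, with a sum of 0.397 to 521 CPM with Aβ42 (median 4.64) and 0 to 48.6 CPM with ScrAβ42 (median 0.359), and 2 of the 4 tested were higher at an unadjusted p under 0.05. The 6 smooth muscle and pericyte markers summed to 720 to 2351 CPM (median 887) against 682 to 1106 CPM (median 810), with a median log2 fold change of 1.07 and 1 of 6 higher at an unadjusted p under 0.05. The 5 mesothelial markers summed to 24 to 174 CPM (median 85.3) against 24.5 to 79.6 CPM (median 46.6), with a median log2 fold change of 0.79 and 0 of 5 under 0.05. The 5 red cell markers summed to 556 to 5073 CPM (median 1519) against 802 to 15945 CPM (median 3317), with a median of -1.37 and 0 of 5 under 0.05. No marker of these 3 lists was at 0 in any heart. Their part in the members' levels was not tested. With the mitochondrial share as a covariate instead, *Cacna1c* (-0.35, unadjusted p = 0.00769) and *Jph2* (-0.31, unadjusted p = 0.0241) were the 2 members under 0.05 unadjusted by edgeR, beside 10.4% of all genes. Scaled to the total count they had unadjusted p-values of 0.0362 and 0.0276, beside 5.42% of all genes.

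The genes of the store itself had smaller differences. *Ryr2*, the ryanodine receptor through which the store empties, had 1579, 2006 and 2302 CPM (lowest, median and highest) with Aβ42 and 1736, 1957 and 2207 CPM with ScrAβ42. The Aβ42 hearts enclosed the range of the ScrAβ42 hearts. *Casq2*, calsequestrin-2, which binds calcium within the store, had 525, 617 and 691 CPM with Aβ42 and 557, 580 and 793 CPM with ScrAβ42. *Hrc*, a histidine-rich calcium-binding protein of the same lumen, had 652, 992 and 1157 CPM against 798, 1067 and 1280 CPM. The log2 fold changes were -0.00 for *Ryr2* (95% interval -0.22 to 0.22), -0.04 for *Casq2* (-0.24 to 0.17) and -0.13 for *Hrc* (-0.41 to 0.15), with adjusted p-values of 0.900 to 1.00 by edgeR. Without Aβ42 replicate 5 that of *Hrc* was -0.06.

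Reuptake and extrusion were likewise within the spread between hearts. *Atp2a2* had 11635, 14870 and 15827 CPM with Aβ42 and 11791, 15729 and 17354 CPM with ScrAβ42, and 1 of 7 Aβ42 hearts exceeded the ScrAβ42 median. *Pln* was the most variable member with Aβ42, at 2041, 5567 and 6340 CPM, a coefficient of variation of 30.7%, against 3671, 5395 and 5830 CPM and 13.6% with ScrAβ42. *Slc8a1*, the sodium-calcium exchanger, had 110, 155 and 181 CPM against 121, 159 and 167 CPM. The groups overlapped for each gene. Their log2 fold changes were -0.08 (95% interval -0.31 to 0.15), -0.10 (-0.52 to 0.32) and -0.04 (-0.30 to 0.21), and without Aβ42 replicate 5 that of *Atp2a2* was -0.04. That of *Pln* ran from -0.18 to 0.03 and that of *Slc8a1* from -0.10 to 0.02 when 1 heart at a time was left out. *Camk2d*, the cardiac calmodulin-dependent kinase that phosphorylates *Ryr2* and *Pln* proteins, was the least variable member, at 123, 139 and 157 CPM with Aβ42 and 126, 134 and 154 CPM with ScrAβ42, and its log2 fold change was 0.04 (-0.10 to 0.18).

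**Figure D1:**
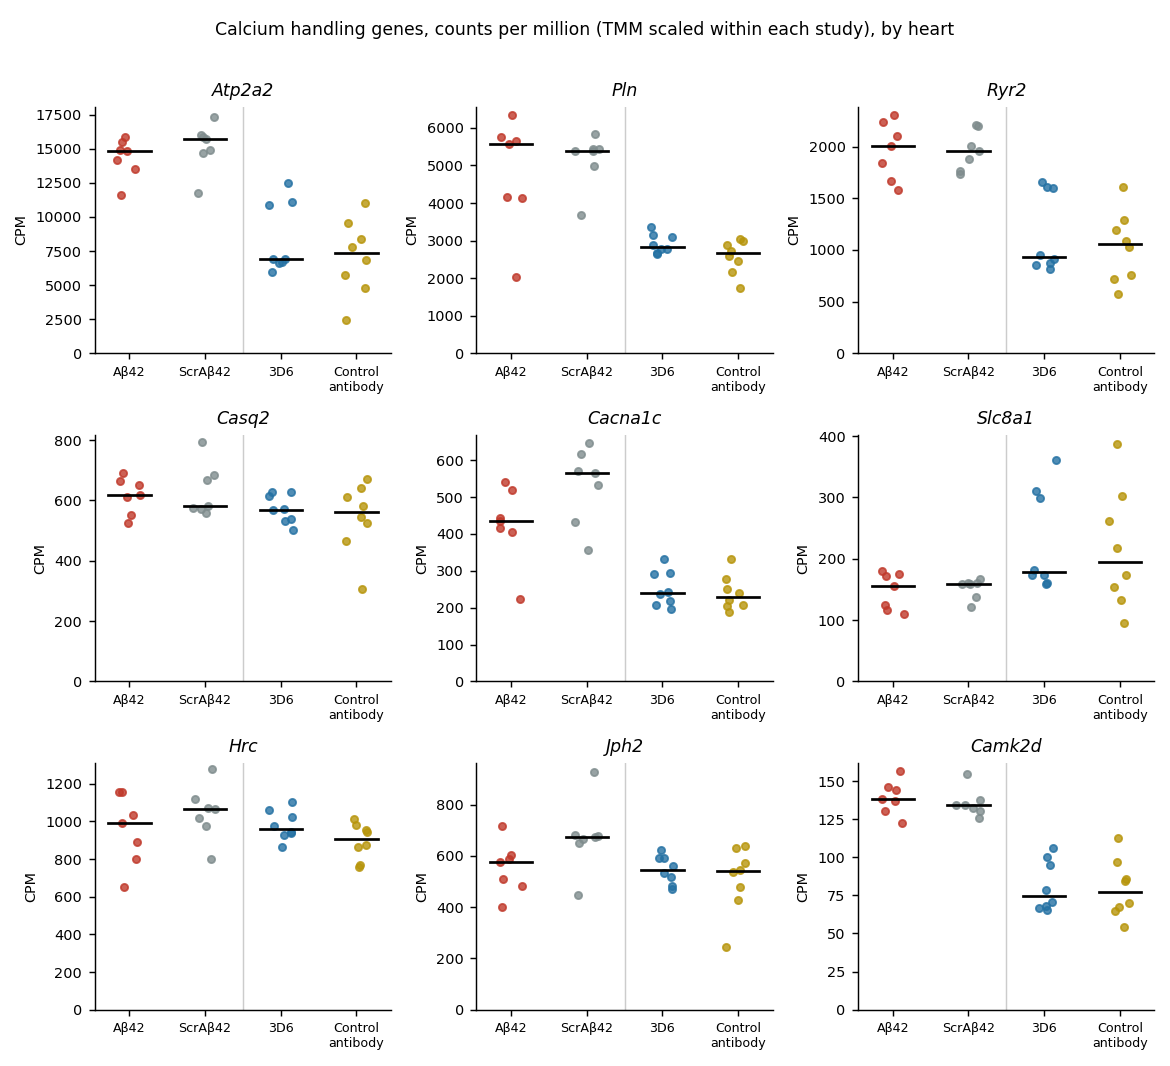
Scaled CPM (vertical axis, starting at 0) of each calcium handling gene in every heart, by group, with the group median as a bar; the grey line parts the 2 studies, which were scaled separately. The treated and control hearts of each study overlapped for all 9 genes, and *Atp2a2*, *Ryr2* and *Slc8a1* fell into separate sets of 3D6 hearts.

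The antibody comparison also gave no call. By edgeR, 0 of 9 members and 0 of 12146 genes passed (0% of all genes), the smallest adjusted p over all genes being 0.944, and DESeq2 and limma-voom also called 0. At an unadjusted p under 0.05 there were 0 members, against 444 genes or 3.66% of all genes. All 9 members had a positive log2 fold change, from 0.03 to 0.26 with a median of 0.10, while 47.2% of all genes were positive and their median was -0.01. With the mitochondrial share as a covariate, *Ryr2*, *Casq2*, *Slc8a1*, *Jph2* and *Camk2d* were instead negative (-0.17 to -0.02) and *Atp2a2* was at 0.00. In the fit without a covariate, marker lists of the heart's cell types had negative medians. They were at -0.17 for 6 endothelial markers (1 lower at an unadjusted p under 0.05 by edgeR; summed level 631 to 772 CPM with 3D6 and 653 to 1001 CPM with the control antibody), -0.15 for smooth muscle and pericyte, -0.14 for macrophage, -0.07 for fibroblast and -0.09 for structural cardiomyocyte markers, with no marker of these lists at 0 in any heart. The atrial list had a median of -0.84 over 6 tested markers and the red cell list one of -0.09. For the mesothelial list it was -0.56 over 2 tested markers (1 lower at an unadjusted p under 0.05 by edgeR). The part of any of these lists in the members' values was not tested. All 9 values come from the same 16 hearts, so the signs are not independent observations. The treated and control hearts overlapped for every member.

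The pump had the largest difference and a wide error. *Atp2a2* was at 5971 CPM in the lowest 3D6 heart, with a median of 6946 and a highest value of 12497, and at 2455, 7323 and 11050 CPM in the same order with the control antibody. The 3D6 median was thus below that of the controls, whereas the mean was above it, and the log2 fold change was 0.26 (SE 0.24, 95% interval -0.24 to 0.76), with an adjusted p of 0.944 by edgeR. *Pln* had 2641, 2827 and 3352 CPM with 3D6 and 1739, 2657 and 3039 CPM with the control antibody, and 7 of 8 3D6 hearts exceeded the control median. Its log2 fold change was 0.18 (SE 0.11, 95% interval -0.04 to 0.41), with an unadjusted p of 0.109 by edgeR and p = 0.0721 in the two-sided exact permutation test. *Slc8a1* had 158, 178 and 361 CPM against 94.7, 195 and 388 CPM, and a log2 fold change of 0.08 (-0.46 to 0.61), the widest interval of the 9.

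Among the release genes, *Hrc* was at 862, 959 and 1102 CPM with 3D6 and at 759, 909 and 1014 CPM with the control antibody, and 7 of 8 3D6 hearts exceeded the control median. Its log2 fold change was 0.13 (SE 0.08, 95% interval -0.05 to 0.31), and the exact permutation test gave p = 0.0769. *Ryr2* had 812, 932 and 1659 CPM against 569, 1058 and 1605 CPM, with a log2 fold change of 0.17 (-0.28 to 0.61), which leaving out 1 heart moved to between 0.08 (without 3D6 replicate 1) and 0.29 (without control antibody replicate 8). *Casq2* had 502, 570 and 629 CPM against 306, 563 and 670 CPM, with a log2 fold change of 0.08 (-0.18 to 0.34). All of these groups overlapped.

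At the membrane, *Cacna1c* had 198, 241 and 333 CPM with 3D6 and 190, 230 and 332 CPM with the control antibody (log2 fold change 0.07, 95% interval -0.20 to 0.34), and the difference was 0.0065 without 3D6 replicate 7 and 0.16 without control antibody replicate 5. *Jph2* had 471, 547 and 624 CPM against 243, 541 and 640 CPM (0.10, -0.21 to 0.41). *Camk2d* had 65.6, 74.4 and 106 CPM against 54.3, 77.2 and 112 CPM (0.03, -0.27 to 0.34). The medians of *Jph2* and *Camk2d* differed by less than the SD within either group.

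**Figure D2:**
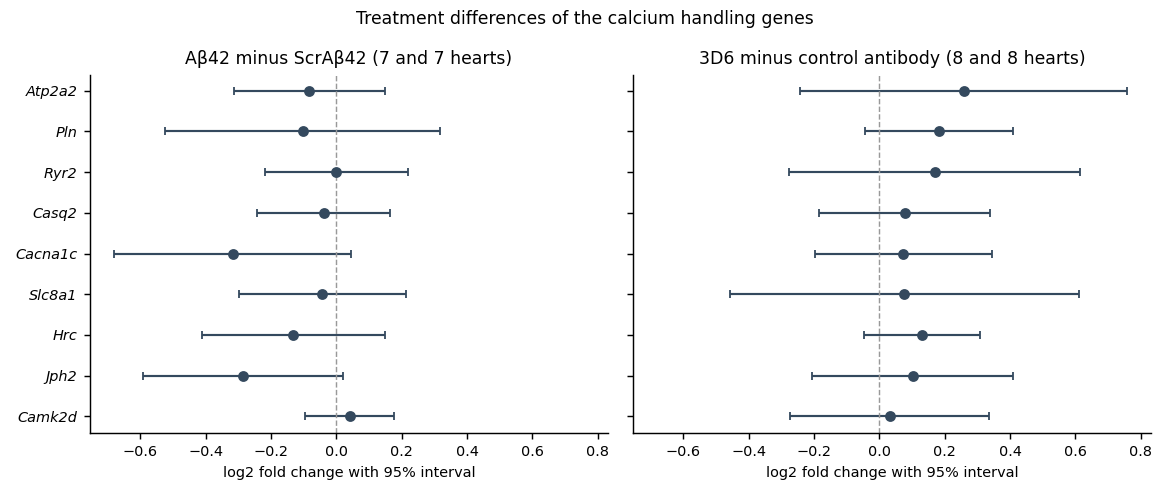
Log2 fold change of each calcium handling gene (horizontal axis) with its 95% interval, for Aβ42 minus ScrAβ42 and for 3D6 minus the control antibody. Every interval includes 0, and the widest belong to *Pln* in the peptide study and *Slc8a1* in the antibody study.

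A difference that the treatment labels do not name ran through the antibody hearts. The sample titles number the mice, and hearts of mice 3 to 15 (3 with 3D6, 4 with the control antibody) stood apart from those of mice 16 to 24 (5 and 4). The first principal component of all genes, with 33.5% of the variance, had one sign in the former 7 hearts and the other in the latter 9. The labels do not say what the numbers stand for, and the boundary was drawn after the values were seen, so the following is a description with no test. *Atp2a2* was at 7778, 10855 and 12497 CPM (lowest, median and highest) in the lower-numbered hearts and at 2455, 6634 and 6948 CPM in the higher-numbered ones. *Ryr2* was at 1084, 1595 and 1659 CPM against 569, 859 and 1032 CPM. The same split was seen for the exchanger and the kinase, as *Slc8a1* was at 217, 302 and 388 CPM against 94.7, 160 and 182 CPM, and *Camk2d* at 84.5, 97.2 and 112 CPM against 54.3, 67.2 and 78.4 CPM. For these 4 of 9 members every lower-numbered heart lay above every higher-numbered heart, as it did for 2.95% of all genes, and 5.32% of all genes had no overlap in either direction.

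The other members overlapped between the ranges of mouse numbers. *Jph2* was at 537, 591 and 640 CPM against 243, 482 and 560 CPM, and *Casq2* at 545, 628 and 670 CPM against 306, 532 and 616 CPM. *Pln* (median 2881 against 2661 CPM), *Cacna1c* (279 against 221 CPM) and *Hrc* (940 against 973 CPM) overlapped widely. The structural cardiomyocyte markers had a summed level of 55097 to 60971 CPM in the lower-numbered and 59834 to 71225 CPM in the higher-numbered hearts. The mitochondrial share was 30.4 to 37.9% against 26.0 to 33.8%, the total count 6807977 to 8310478 against 6397192 to 7628184, and the summed atrial markers 2.41 to 6813 against 5.40 to 1631 CPM. The macrophage markers were at 63.0 to 90.1 against 79.6 to 116 CPM, and the red cell markers at 828 to 1699 (median 914) against 1003 to 2701 CPM (median 1609). The part of any of these in the members' levels was not tested.

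**Figure D3:**
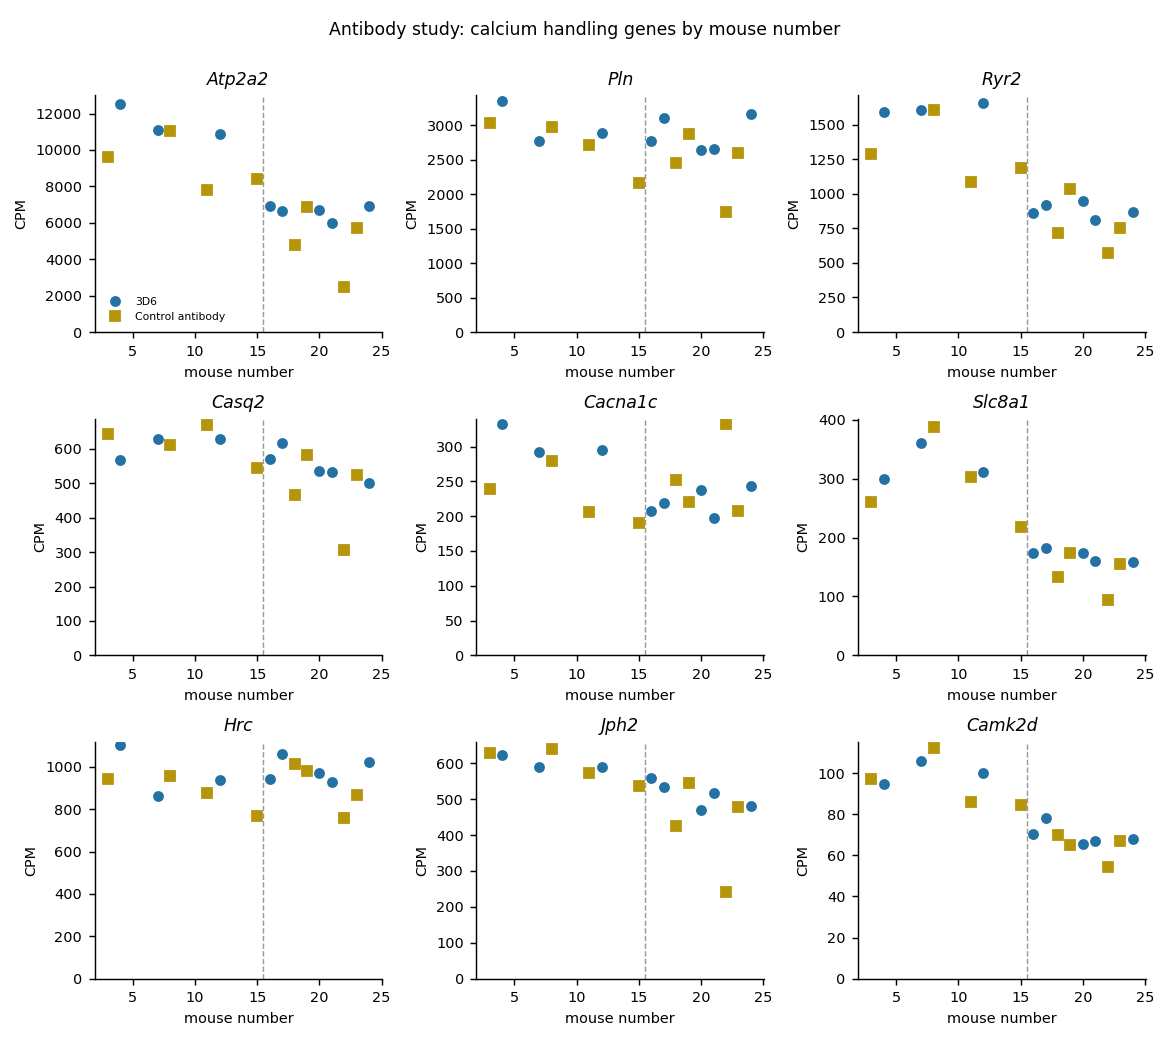
Scaled CPM (vertical axis, starting at 0) of each calcium handling gene in the antibody study against the mouse number in the sample title, with circles for 3D6 and squares for the control antibody; the dashed line parts mice 3 to 15 from mice 16 to 24. *Atp2a2*, *Ryr2*, *Slc8a1* and *Camk2d* do not overlap across the line, and mouse 22 has the lowest value of 8 genes and a high value of *Cacna1c*.

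With the range of mouse numbers as a covariate, the error of the treatment difference narrowed. The boundary between the ranges was drawn on these same hearts. The p-values of this fit and of the fits within a range are therefore given as description only. The log2 fold change of *Atp2a2* was then 0.38 (SE 0.14, unadjusted p = 0.0153, adjusted p = 0.272 by edgeR) and that of *Ryr2* 0.25 (SE 0.10, unadjusted p = 0.0240, adjusted p = 0.294). These 2 of 9 members were under an unadjusted p of 0.05, beside 14.5% of all genes, and no gene passed the adjusted threshold. In the same fit *Slc8a1* was at 0.23, *Pln* at 0.20, *Jph2* at 0.16 and *Hrc* at 0.13. *Casq2* was at 0.12, *Camk2d* at 0.10 and *Cacna1c* at 0.08. In the lower-numbered hearts, *Atp2a2* was at 11487 ± 884 CPM with 3D6 (SD, n = 3) and 9201 ± 1444 with the control antibody (n = 4), and *Ryr2* at 1620 ± 33.9 against 1291 ± 225. In the higher-numbered hearts, *Atp2a2* was at 6642 ± 400 CPM with 3D6 (n = 5) and 4950 ± 1872 with the control antibody (n = 4), and *Ryr2* at 881 ± 52.8 against 769 ± 193. Fitted within the lower range, *Cacna1c* (0.42, unadjusted p = 0.00980), *Ryr2* (0.33, unadjusted p = 0.0375) and *Atp2a2* (0.32, unadjusted p = 0.0426) were under 0.05 unadjusted by edgeR, beside 10.3% of all genes. Within the higher range no member was, beside 7.59% of all genes, and *Cacna1c* had a log2 fold change of -0.20.

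The heart of mouse 22 (control antibody, replicate 5) had the lowest level of every member but *Cacna1c*, which at 332 CPM was the second highest of the 16 hearts. *Atp2a2* was at 2455 CPM there, against 4770 CPM in the next lowest heart, and the heart also had the lowest mitochondrial share, 26.0%. Without it the log2 fold change of *Atp2a2* was 0.14, that of *Jph2* 0.00, that of *Casq2* -0.00, and those of *Slc8a1* and *Camk2d* were both -0.03. A fit with the mouse number range as a covariate and this heart left out was also chosen after the values were seen. In it *Atp2a2* was at 0.27 (SE 0.09, unadjusted p = 0.00635, adjusted p = 0.362) and *Ryr2* at 0.20 (SE 0.09, unadjusted p = 0.0388, adjusted p = 0.426) by edgeR, beside 11.2% of all genes under 0.05.

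The antibody table resolves transcripts, and *Atp2a2* and *Camk2d* each make products that differ in known ways. *Atp2a2* ends in alternative exons, giving the SERCA2a pump of cardiac muscle from Atp2a2-202 and the longer SERCA2b, found in most tissues, from Atp2a2-201. The gene lies at chr5:122453513-122502225 on the minus strand of GRCm38. The coding ends are shown because they are what tells these pumps apart. They were read from the GENCODE vM21 transcripts in the direction of transcription, with 15 shared bases in lower case and the coding bases of each transcript's own end, stop codon included, in capitals. Those of Atp2a2-201 are 152 bases at chr5:122457151-122457302 and those of Atp2a2-202 are 14 bases at chr5:122454291-122454304.
Atp2a2-201: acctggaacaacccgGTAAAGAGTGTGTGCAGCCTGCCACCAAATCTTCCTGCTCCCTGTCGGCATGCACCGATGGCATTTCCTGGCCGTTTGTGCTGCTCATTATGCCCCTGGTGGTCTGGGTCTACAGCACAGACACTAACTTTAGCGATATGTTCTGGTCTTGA
Atp2a2-202: acctggaacaacccgCAATACTGGAGTAA

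The SERCA2a transcript Atp2a2-202 made up 78.9% of the gene's counts on average, from 64.4 to 88.3% over the 16 hearts, and Atp2a2-201 made up 18.9%, from 2.20 to 35.0%. The treatment groups overlapped, with 20.9 ± 11.0% of Atp2a2-201 with 3D6 and 16.98 ± 9.84% with the control antibody (SD, n = 8 each). By mouse number, Atp2a2-201 had 18.9 to 35.0% in the lower-numbered and 2.20 to 16.4% in the higher-numbered hearts. Of the 22 member transcripts with a mean share of at least 5%, 7 had shares that did not overlap between the ranges (2 each of *Atp2a2*, *Pln* and *Cacna1c* and 1 of *Slc8a1*), beside 1.66% of the 24419 such transcripts of all genes tested. These are descriptions with no test, since the boundary was drawn on these hearts. Atp2a2-202 itself was at 6375 to 8311 CPM in the lower-numbered and 2101 to 6015 CPM in the higher-numbered hearts, so both transcripts were lower in the latter. Shares come from an estimate that assigns reads to transcripts that overlap in most of their length.

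*Pln* had a like pattern, with Pln-206 at 19.7 to 32.9% of the gene's counts in the lower-numbered and 0.80 to 18.5% in the higher-numbered hearts, while Pln-201 had 57.3 to 72.5% against 72.7 to 83.2%. The exchanger's main transcript, Slc8a1-204, had 62.4 to 78.0% against 78.6 to 87.1%. *Cacna1c* was spread over many transcripts, of which Cacna1c-207 had 37.5 to 49.4% against 51.7 to 67.4% and Cacna1c-223 had 0 to 6.74% against 8.51 to 14.8%. Cacna1c-212 had 12.9 to 26.8% against 1.92 to 13.1%, and these ranges overlapped. By contrast, a main transcript held nearly all of *Hrc* (Hrc-201, 99.8 to 100%) and most of *Ryr2* (Ryr2-201, 86.2 to 94.0%). Casq2-201 and Jph2-201 averaged 97.3% and 87.3%, and both were lowest in the heart of mouse 22, at 65.1% and 19.6%.

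*Camk2d* is spliced between its catalytic and association domains, where a 33-base exon carries a nuclear localisation signal and marks the nuclear δB form. The gene lies at chr3:126596302-126846326 on the plus strand. The region is shown because its exons name the splice forms whose shares were measured, with 12 flanking bases in lower case and the alternative exons in capitals. They are the 33-base exon at chr3:126802937-126802969 (in Camk2d-218), a 60-base exon at chr3:126805857-126805916 and a 42-base exon at chr3:126808208-126808249 (both in Camk2d-206, the latter alone in Camk2d-202).
Camk2d-202: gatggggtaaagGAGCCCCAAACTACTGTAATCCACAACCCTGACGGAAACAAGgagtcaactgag
Camk2d-226: gatggggtaaaggagtcaactgag
Camk2d-206: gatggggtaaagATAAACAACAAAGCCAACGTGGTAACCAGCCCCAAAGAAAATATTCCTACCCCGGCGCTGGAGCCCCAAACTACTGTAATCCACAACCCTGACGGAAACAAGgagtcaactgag
Camk2d-218: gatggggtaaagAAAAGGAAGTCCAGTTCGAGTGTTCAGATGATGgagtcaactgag

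Camk2d-202, with the 42-base exon alone, was the main transcript at 46.3 to 70.1% of the gene's counts, followed by Camk2d-226, with none of the exons, at 3.87 to 37.6%, and Camk2d-206 at 0 to 21.2%. The share of Camk2d-202 was 51.6 ± 4.81% with 3D6 and 59.0 ± 6.73% with the control antibody. The difference of -7.41 percentage points had p = 0.0249 in the two-sided exact permutation test and 0.0727 after adjustment over the 3 transcripts tested. Camk2d-206 had 9.92 ± 5.66% against 4.08 ± 5.28%, a difference of 5.84 points (exact permutation p = 0.0485, adjusted p = 0.0727), and Camk2d-226 had 19.2 ± 9.93% against 15.9 ± 10.5% (exact permutation p = 0.529). Neither difference passed the adjusted threshold with all hearts. Leaving out 1 heart at a time moved the adjusted p of the Camk2d-202 difference between 0.0117 and 0.132, and that of Camk2d-206 between 0.0268 and 0.147. Both passed without control antibody replicate 1 or 4 or without 3D6 replicate 1, and Camk2d-202 also passed without 3D6 replicate 2. Within the lower and the higher range of mouse numbers the Camk2d-206 difference was 1.88 and 8.39 points, and that of Camk2d-202 was -9.81 and -4.79 points. The gene had only 380 to 820 counts per heart, so a share of a few percent rests on few counts.

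Summed over the 19 transcripts that span the region, the 42-base exon was present in 69.5 ± 6.98% of them by count in the 3D6 hearts and in 76.3 ± 9.86% in the controls (exact permutation p = 0.137, adjusted p = 0.410). The 60-base exon was included in 15.6 ± 5.99% and 14.4 ± 8.06% (exact permutation p = 0.732). The 33-base exon was rare, at 0 to 1.96% with 3D6 and 0 to 3.17% with the control antibody (exact permutation p = 0.543). In the fit over 20729 transcripts, edgeR called 0 of 8 *Camk2d* transcripts and 0 transcripts in all (0%), as did limma-voom. At an unadjusted p under 0.05 there was 1 of the 8 (Camk2d-228, which was at 0 in 14 of the 16 hearts), beside 499 transcripts or 2.41% of all tested.

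By mouse number, Camk2d-221 stood out and was chosen after its values were seen. It had 40.2 to 98.1 estimated counts in each of the 7 lower-numbered hearts and was listed at 0 in all 9 higher-numbered hearts. With Camk2d-221 included, 4 of the 20729 transcripts tested (0.0193%) had counts in every lower-numbered heart and were at 0 in every higher-numbered one. Of the 43 member transcripts tested, 12 had CPM values that did not overlap between the ranges, beside 3.86% of all transcripts tested, and 10 of these were higher in the lower-numbered hearts, beside 2.56%. It holds the same 60- and 42-base exons as Camk2d-206. Camk2d-219, annotated as a retained intron, had 8.66 to 112 estimated counts in the lower-numbered hearts and at most 17.4 in the higher-numbered ones, 5 of which were at 0. Camk2d-226 went the other way, at 7.57 to 15.3% of the gene's counts against 3.87 to 37.6%, and these ranges overlapped.

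**Figure D4:**
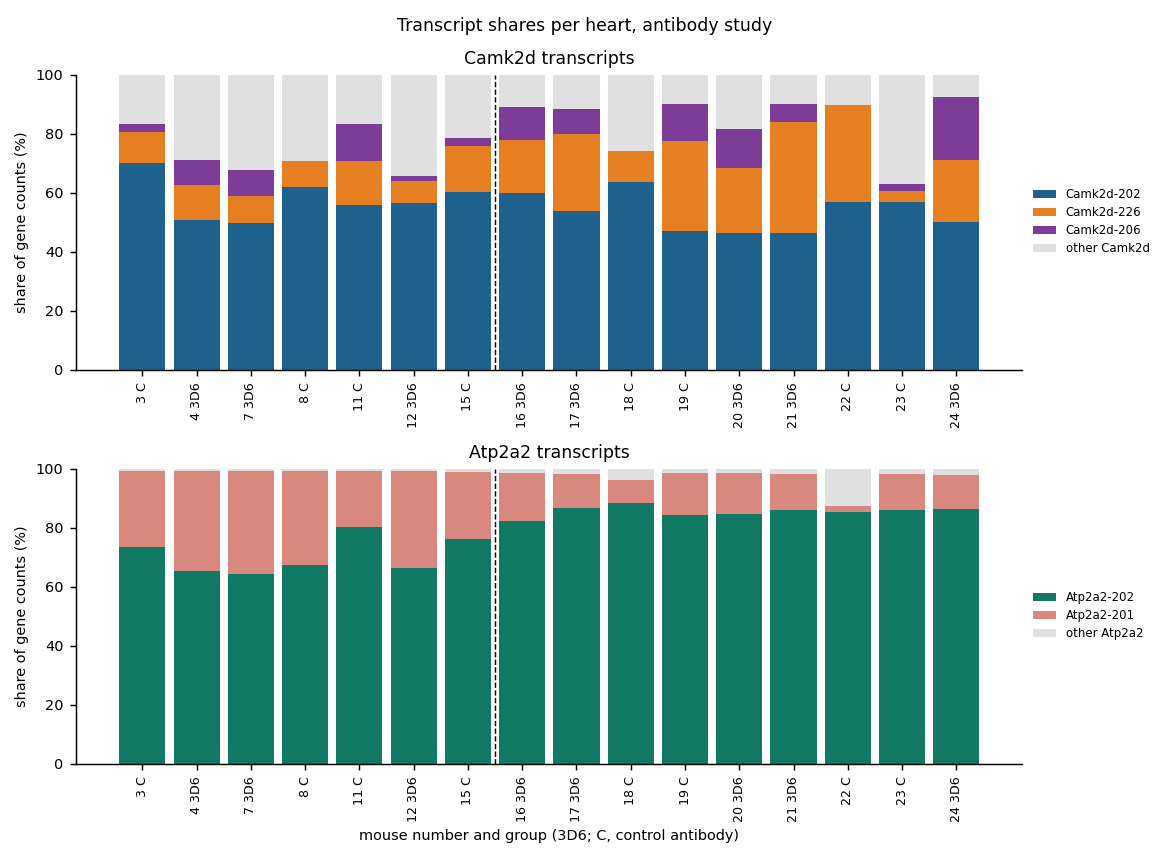
Share of the counts of *Camk2d* (top) and *Atp2a2* (bottom) given to each transcript in every heart of the antibody study, as stacked percentages in order of mouse number, with the group beside the number and a dashed line between mice 15 and 16. Atp2a2-201 takes 18.9 to 35.0% left of the line and 2.20 to 16.4% right of it, while Camk2d-202 takes 46.3 to 70.1% throughout.

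The balance between members was read as 6 log2 ratios of gene counts in each study, compared by two-sided exact permutation tests. None passed after adjustment over the 6. In the peptide study the smallest p belonged to *Cacna1c* over *Ryr2*, at -2.24 ± 0.42 with Aβ42 and -1.91 ± 0.28 with ScrAβ42 (exact permutation p = 0.111, adjusted p = 0.664). Without Aβ42 replicate 5 the difference went from -0.33 to -0.20. The ratio of *Pln* to *Atp2a2*, which sets inhibitor against pump, was -1.65 ± 0.44 against -1.56 ± 0.13 (exact permutation p = 0.705). In the antibody hearts it was -1.49 ± 0.39 with 3D6 and -1.36 ± 0.50 with the control antibody (exact permutation p = 0.575), and the difference of -0.13 ran from -0.21 (without control antibody replicate 2) to -0.0039 (without control antibody replicate 5). The exchanger over the pump, *Slc8a1* to *Atp2a2*, was -5.24 ± 0.16 against -5.04 ± 0.26 (exact permutation p = 0.0945, adjusted p = 0.567).

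How far members varied together over hearts of the same group was read as pairwise correlations. In the peptide study, 28 of 36 pairs were positively correlated over 14 hearts once group means were removed, and 9 pairs, all positive, passed an adjusted p of 0.05 in a permutation test. These 9 had r of at least 0.66, as did 4.54% of all pairs of the genes tested, of which 50.0% were positive. One principal component held 48.1% of the variance of these hearts. *Atp2a2* and *Jph2* had Pearson's r = 0.94 (permutation p = 4e-05, adjusted p = 0.0009) and Spearman's rho = 0.83 (permutation p = 0.00079), and *Pln* and *Cacna1c* had r = 0.91 (permutation p = 5e-05) and rho = 0.78 (permutation p = 0.00105). Without the 2 hearts farthest from the median *Atp2a2* and *Jph2* had r = 0.85 (permutation p = 0.00145, adjusted p = 0.0522) and *Pln* and *Cacna1c* r = 0.63 (permutation p = 0.00645, adjusted p = 0.116). On those 12 hearts 0 of 36 pairs passed, the median r over all pairs was 0.13 against 0.44, and some coefficients fell to near 0, as that of *Atp2a2* with *Cacna1c* went from 0.75 to 0.02. By rank 3 pairs passed, and with the atrial marker score removed 2 passed. *Camk2d* and *Casq2* were the least tied to the rest, with r of 0.04 and 0.26 against the mean of the 9.

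In the antibody study a pooled coefficient would mix the ranges of mouse numbers, so pairs were read within each. Over the 7 lower-numbered hearts 34 of 36 pairs were positive (median r 0.65), beside 50.0% of all pairs of the genes tested (median r 0.00). Of the 36, 8 had an unadjusted exact permutation p under 0.05, and 0 passed after adjustment, where the smallest p the design allows is 0.00694. Counts of pairs under 0.05, adjusted or not, are given here for both ranges without a share over all pairs. They therefore do not show whether the members differ from other genes. Over the 9 higher-numbered hearts 28 pairs were positive, beside 50.0% of all pairs of the genes tested (median r 0.00), and all 8 pairs with *Cacna1c* were negative. There, 15 pairs had an unadjusted p under 0.05, and 1 passed after adjustment, *Casq2* with *Slc8a1* (r = 0.99, exact permutation p = 0.000694, adjusted p = 0.025; rho = 0.95). Without mouse 22, 2 pairs had an unadjusted p under 0.05 and 0 passed, and the median r went from 0.77 to 0.38. The r between *Cacna1c* and *Jph2* went from -0.91 to -0.67, and *Cacna1c* was also negative with *Casq2* (-0.51), *Slc8a1* (-0.38) and *Atp2a2* (-0.14). Its r turned positive with *Hrc* (0.72), *Pln* (0.10), *Ryr2* (0.03) and *Camk2d* (0.03). *Casq2* with *Slc8a1* remained at r = 0.94 there (exact permutation p = 0.00833, adjusted p = 0.3; rho = 0.90), over 8 hearts whose smallest possible p is 0.00139. The same pair had r = 0.51 (exact permutation p = 0.361) in the lower-numbered hearts and r = -0.27 (permutation p = 0.319) in the peptide study.

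**Figure D5:**
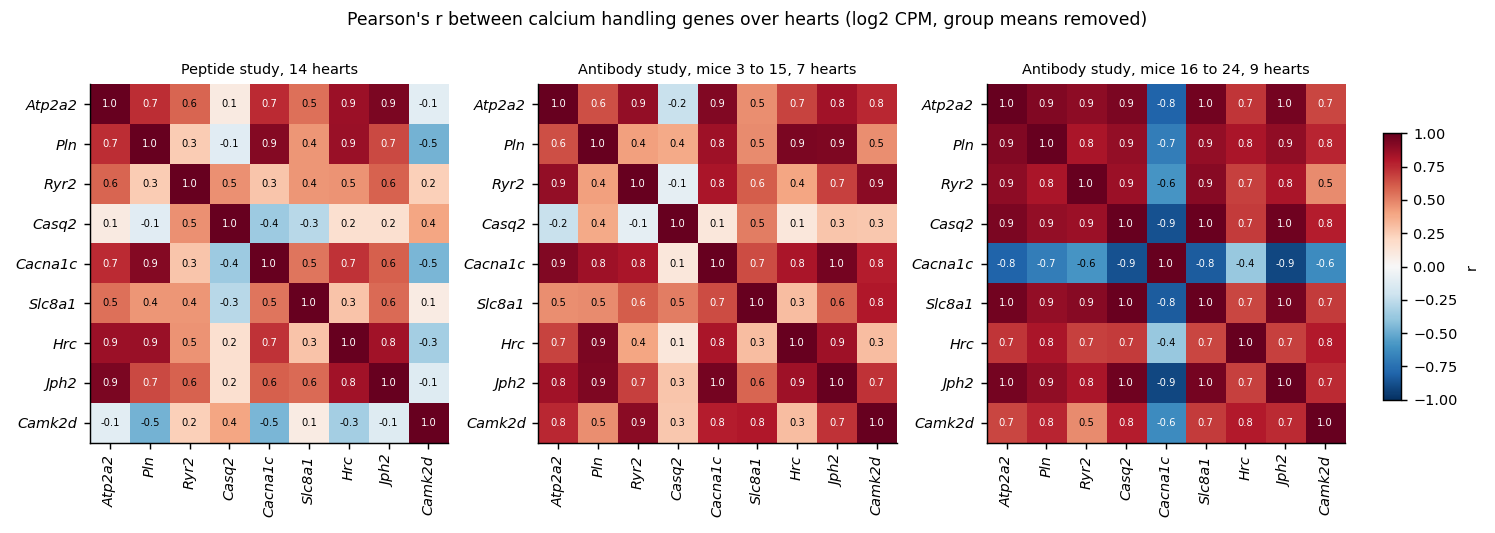
Pearson's r between calcium handling genes (log2 CPM with group means removed; red positive, blue negative) in the peptide study and in the 2 ranges of mouse numbers of the antibody study. In the right panel the row and column of *Cacna1c* are negative; without mouse 22 its r with *Jph2* is -0.67 and with *Hrc* 0.72.

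Of 11298 genes measured in both studies, those closest to the mean profile of the members were ranked by the lower of their correlations in each study, the antibody value being pooled over all 16 hearts and so mixing the ranges of mouse numbers. These were *Perm1* (r = 0.93 over the 14 peptide hearts, 0.86 and 0.94 in the lower- and higher-numbered antibody hearts), *Pptc7* (0.91, 0.97 and 0.80), *Kif16b* (0.90, 0.92 and 0.90), *Ecpas* (0.90, 0.91 and 0.84) and *Atad1* (0.90, 0.95 and 0.90). *Cul3*, next in rank and named after its values were seen, had 0.89, 0.95 and 0.96, so the order would differ on within-range values. *Perm1* encodes a muscle regulator of oxidative metabolism and *Pptc7* a mitochondrial phosphatase. The coefficients are descriptions over hearts that share library scaling and the mitochondrial share given above.

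Other genes of calcium handling, a list of 63 of which 62 were matched, showed no call either. In the peptide study 56 were tested, and edgeR called 0. At an unadjusted p under 0.05 there were 6 (10.7%), 1 higher and 5 lower, beside 6.51% of all genes. *Itpr2*, an IP3 receptor, was at a median of 36.95 CPM with Aβ42 and 32.3 CPM with ScrAβ42 (log2 fold change 0.24, SE 0.08, unadjusted p = 0.00559, adjusted p = 0.643 by edgeR). The 5 lower were *Casq1*, the skeletal calsequestrin (-0.95, unadjusted p = 0.0101), *Orai1*, a store-operated channel (-0.34, unadjusted p = 0.0122), *Rcan1*, a regulator of calcineurin (-0.27, unadjusted p = 0.0146), *Cacna1g*, a T-type channel (-0.45, unadjusted p = 0.0392), and *Atp2b1*, a plasma membrane pump (-0.12, unadjusted p = 0.0496). The 6 fast skeletal muscle markers, all detected and with *Myh1* at 0 in 2 hearts, had a summed level of 6.15 to 79.4 CPM with Aβ42 (median 45.9) and 42.4 to 72.8 CPM with ScrAβ42 (median 60.6), and a median log2 fold change of -0.63; their part in the level of *Casq1* was not tested. Also among the smallest p-values of the positive side, *Ppp1r1a*, a protein phosphatase inhibitor (1.11, unadjusted p = 0.0587), and *Atp2b4*, another plasma membrane pump (0.37, unadjusted p = 0.0656), did not reach 0.05. *Cacna1g* and *Atp2b1* fell outside the naming rule and were named to complete the count. For 3D6 against the control antibody 54 were tested, with 0 called and 0 under an unadjusted p of 0.05 by edgeR. The smallest belonged to *Cacna2d1*, an auxiliary subunit of the L-type channel, at a median of 120 CPM with 3D6 and 86.0 CPM with the control antibody (0.35, SE 0.17, unadjusted p = 0.0541). The list's median log2 fold change was -0.02 for Aβ42 against ScrAβ42 and -0.03 for 3D6 against the control antibody, beside 0.00 and -0.01 over all genes.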

How the data were processed

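Per the study's methods, left ventricular RNA was extracted with Trizol and RNeasy columns, libraries were made with a TruSeq Stranded Total RNA kit, and reads were assigned to GENCODE vM24 transcripts with Salmon; the submitters' notes name GRCm38. For the peptide study the values deposited by the authors are whole-number counts of Ensembl genes, and for the antibody study they are estimated counts per transcript, summed here to genes with the GENCODE vM21 annotation and rounded. Transcripts missing from vM21 held 0.38% of counts and were left out, as was 1 peptide column that matched no labelled sample. Genes averaging 10 or more counts over the hearts entered edgeR 4.0.16 (quasi-likelihood, TMM), with p-values adjusted over all genes. Exact permutation tests ran over all 3432 or 12870 regroupings, and correlations of the peptide study over 100000 permutations within groups (20000 without the 2 farthest hearts). Those within a range of mouse numbers ran over all 144 (lower), 2880 (higher) or 720 (higher without mouse 22) orders of the hearts that keep each group in place. DESeq2 1.42.0, limma 3.58.1, other scalings, filters and covariates, and leaving out each heart were tried. The scripts were tested on simulated data. The members and lists were chosen with earlier results of these data known, and the boundary between mouse numbers after the values were seen. The text names the members, *Camk2d* transcripts with a mean share of at least 5%, the 3 genes of the wider list with the smallest p in each direction (as far as they bear on its counts), and the 5 genes closest to the members' mean profile. p-values measure the spread between mice.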

Additional observations from a re-analysis of the deposited data

Results flagged for a closer look

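Of 66 groups of hearts examined for members, ratios and *Camk2d* transcripts, 7 had a heart far from the others by Dixon's test, which chance flags in about 5% of groups. In the Aβ42 group *Cacna1c* was lowest at 224 CPM in replicate 5. In the ScrAβ42 group *Pln* was lowest at 3671 CPM in replicate 6, *Camk2d* was highest at 154 CPM in replicate 1, the log2 ratio of *Slc8a1* to *Atp2a2* was lowest at -6.98, that of *Hrc* to *Casq2* was lowest at 0.22, and that of *Jph2* to *Cacna1c* was highest at 1.10. In the control antibody group the log2 ratio of *Jph2* to *Cacna1c* was lowest at -0.45, in the heart of mouse 22. Why these hearts differ was not tested.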

How the results depend on the processing

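Member calls stayed at 0 of 9 in both comparisons and pathway list calls at 0 under every alternative run, and no *Camk2d* transcript was called. DESeq2 called 12 genes in the peptide study. The genes with an unadjusted p under 0.05 there numbered 457 when scaled to structural cardiomyocyte genes, 1475 with no filter and 1252 with the mitochondrial share as a covariate. In the antibody study they numbered 1168 with no filter, 1760 with the mouse number range as a covariate, 1361 with that covariate and without mouse 22, 1242 in the lower and 927 in the higher range, alternatives on mouse numbers being chosen after seeing the data. Directions that turned were all uncalled, and the cause was not tested. In the peptide study, scaling to structural genes gave 0.055 (*Atp2a2*), 0.14 (*Ryr2*), 0.11 (*Casq2*) and 0.091 (*Slc8a1*). The atrial score as a covariate gave 0.035 (*Atp2a2*), 0.21 (*Pln*), 0.032 (*Ryr2*), 0.012 (*Slc8a1*), 0.085 (*Hrc*) and -0.011 (*Camk2d*). Leaving out the 5 hearts of high atrial score, chosen after seeing the data, gave 0.11 (*Pln*), 0.017 (*Hrc*) and -0.059 (*Camk2d*). *Ryr2* was at 0.028 scaled to the total count, 0.0029 with no filter and 0.0057 with at least 10 counts in every heart. In the antibody study the mitochondrial covariate gave -0.060 (*Ryr2*), -0.022 (*Casq2*), -0.17 (*Slc8a1*), -0.040 (*Jph2*) and -0.12 (*Camk2d*). *Casq2* was at -0.021 in the lower range and *Cacna1c* at -0.20 in the higher. *Camk2d* was at -0.0061 scaled to the total count and -0.030 from protein coding transcripts. In the lower range the log2 ratio difference was 0.094 for *Cacna1c*/*Ryr2* and -0.42 for *Jph2*/*Cacna1c*, and Camk2d-226 differed by -2.85 points. In the higher range it was 0.044 for *Casq2*/*Ryr2* and -0.14 for *Hrc*/*Casq2*. Correlated member pairs in the peptide study numbered 3 by Spearman's rho, 2 without the atrial score and 0 without the 2 farthest hearts. Leaving out each heart in turn gave 0 to 3 called genes in the peptide study (3 without Aβ42 replicate 2), and 609 to 1266 (without ScrAβ42 replicate 6) genes under 0.05 unadjusted, against 256 (without 3D6 replicate 7) to 765 (without control antibody replicate 8) in the antibody study. Peptide log2 fold changes then ranged from -0.18 to 0.028 (*Pln*), -0.043 to 0.046 (*Ryr2*), -0.068 to 0.024 (*Casq2*) and -0.097 to 0.017 (*Slc8a1*), and, without a change of sign, from -0.14 (without ScrAβ42 replicate 6) to -0.038 (without Aβ42 replicate 5) for *Atp2a2*, -0.19 to -0.058 (without the same hearts) for *Hrc* and 0.0097 (without Aβ42 replicate 5) to 0.074 (without ScrAβ42 replicate 1) for *Camk2d*. Antibody ones ranged from -0.0044 to 0.13 (*Casq2*), -0.044 to 0.25 (*Slc8a1*) and -0.029 to 0.12 (*Camk2d*), and that of *Jph2* from 0.0037 (without control antibody replicate 5) to 0.16 (without replicate 8). Peptide ratio differences ranged from -0.15 to 0.055 (*Pln*/*Atp2a2*), -0.037 to 0.076 (*Slc8a1*/*Atp2a2*), -0.077 to 0.024 (*Casq2*/*Ryr2*) and -0.014 to 0.18 (*Jph2*/*Cacna1c*). Antibody ones ranged from -0.14 to 0.011 (*Casq2*/*Ryr2*), -0.028 to 0.10 (*Hrc*/*Casq2*), -0.19 to 0.079 (*Cacna1c*/*Ryr2*) and -0.14 to 0.14 (*Jph2*/*Cacna1c*). The Camk2d-202 share differed by -9.11 to -5.83 points, that of Camk2d-206 by 4.23 to 7.04 and that of Camk2d-226 by 0.62 to 5.71. The replicate numbers were given here and pair no samples. *Camk2d*, with the fewest counts of the members, limits how well its shares are known.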
